A study of Mus musculus with 8 samples.

Results

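Notch signalling was examined through the mRNA of 10 genes. The tissue was labelled organ of Corti, the sensory epithelium of the cochlea, and also held markers of other cochlear tissues, given below. The genes were the ligands Jag1, Jag2 and Dll1, the receptors Notch1 and Notch2, and the effectors Hes1, Hes5, Hey1 and Hey2. The last was the supporting cell transcription factor Sox2. All probe sets annotated to these symbols alone were taken, 16 in number. Of the 18193 genes read from the array table, 13221 passed a filter on low signal and were tested, and 9 of the 10 genes were among them; Hes5 was not. The samples were apical and basal segments of the organ of Corti from mice at postnatal day 16. All mice carried Atoh1-Cre, a transgene that drives recombination in hair cells. The conditional knockouts (cKO, Atoh1-Cre;Dicer1(flox/flox)) had both Dicer1 alleles floxed, and the littermate controls (Atoh1-Cre;Dicer1(flox/wt)) had a single floxed allele, so that the controls carried Cre and a floxed allele too. Dicer1 encodes the enzyme that cuts microRNA precursors to their mature form. The 4 groups were cKO base, control base, cKO apex and control apex, each with 2 arrays, and an array held the pooled segments of both cochleae of 1 mouse. Samples of the same genotype and replicate number were taken as base and apex of the same mouse, which gave 4 presumed mice.

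In Notch signalling a ligand on a cell binds a receptor on its neighbour, proteases release the intracellular part of the receptor, and this part joins the DNA-binding protein RBPJ in the nucleus to switch on Hes and Hey genes. Hes and Hey proteins are basic helix-loop-helix repressors. In the developing cochlea Jag1 and Sox2 mark the prosensory region, and later hair cells display Jag2 and Dll1 to the supporting cells around them, where Notch1 and the Hes and Hey repressors hold back Atoh1, the hair cell fate factor. Jag1 and Sox2 remain in supporting cells, and Atoh1-Cre acts in hair cells, so that most of the genes described here are known from the neighbours of the cells in which Dicer1 was to be removed.

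Values are log2 of the deposited array signal, and a difference of 1 is a change by a factor of 2. Array medians ran from a signal of 67.3 to 100.4. The log2 values of replicates correlated across genes at r = 0.9748 in cKO apex, 0.9779 in cKO base and 0.9615 in control apex. In control base they correlated at only 0.9279. There replicate 1 was nearer to the 6 samples of the other groups (0.9529 to 0.968) than to its replicate. Replicate 2 was so as well (0.938 to 0.972), except for control apex replicate 1 (0.9254). Which of the 2 was the less typical could not be told from these values. Xist, which marks cells with a silenced X, read 12.39 and 12.54 for base and apex of control mouse 1 and 6.28 to 8.23 for all other samples. The control mice were thus of different sex. Both cKO mice read low, so sex was not balanced between the genotypes. Control base replicate 1, whose removal is reported below, is one of the samples with high Xist. The part of sex in the values below was not tested. Dicer1 itself lay between 9.04 and 9.57 in all 8 samples, with cKO and control overlapping in both regions. Its probes could not be placed relative to the floxed exon, and recombination was therefore not measured. Precision is limited throughout by the number of arrays.

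Promoter sequence is shown for the genes whose letters or values differ most clearly: Jag1 and Sox2, which were both lower in the base, and Hes5 and Hey2, which hold matches to the sequence bound by RBPJ. The windows run from 250 bases before to 10 bases after the start of transcription, 260 bases in all (RefSeq, GRCm38.p6), and 8 of the 10 genes had an entry; Hes1 and Hey1 did not. A pair of motifs was searched on both strands: the RBPJ sequence GTGGGAA, which on the other strand reads TTCCCAC, found in 1833 of 32851 promoters (5.58%) and at least 2 times in 61 (0.186%), and the class C site of Hes and Hey proteins, CACGNG, which on the other strand reads CNCGTG, found in 8021 (24.4%) and at least 2 times in 1906 (5.8%). No promoter of the set held both motifs. Hes5 (chr4:154960673-154960932, plus strand) and Hey2 (chr10:30842774-30843033, minus strand) each held 2 RBPJ matches, in capitals here:
Hes5: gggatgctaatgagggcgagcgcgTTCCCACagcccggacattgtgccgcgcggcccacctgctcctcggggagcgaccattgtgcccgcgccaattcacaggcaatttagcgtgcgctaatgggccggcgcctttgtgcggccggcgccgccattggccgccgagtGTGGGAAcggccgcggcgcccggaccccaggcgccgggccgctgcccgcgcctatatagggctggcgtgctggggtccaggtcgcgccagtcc
Hey2: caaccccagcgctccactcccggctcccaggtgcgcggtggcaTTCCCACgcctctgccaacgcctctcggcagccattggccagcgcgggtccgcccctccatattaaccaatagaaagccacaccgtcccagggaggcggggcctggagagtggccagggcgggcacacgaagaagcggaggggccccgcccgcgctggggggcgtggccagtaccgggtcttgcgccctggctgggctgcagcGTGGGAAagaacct
Jag1 (chr2:137116511-137116770, minus strand) held 2 class C matches, in capitals, and Sox2 (chr3:34649745-34650004, plus strand) held neither motif in this window and is printed without capitals:
Jag1: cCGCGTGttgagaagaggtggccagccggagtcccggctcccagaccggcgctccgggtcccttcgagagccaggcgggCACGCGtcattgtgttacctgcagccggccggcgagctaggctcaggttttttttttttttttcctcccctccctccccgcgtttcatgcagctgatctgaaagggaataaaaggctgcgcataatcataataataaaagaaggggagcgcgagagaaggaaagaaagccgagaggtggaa
Sox2: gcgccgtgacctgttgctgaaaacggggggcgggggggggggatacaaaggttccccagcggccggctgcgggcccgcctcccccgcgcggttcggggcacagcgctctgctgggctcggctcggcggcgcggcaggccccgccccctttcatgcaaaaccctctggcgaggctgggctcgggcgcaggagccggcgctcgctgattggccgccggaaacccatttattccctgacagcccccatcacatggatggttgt
The matches in Hes5 began 226 and 83 bases before the start, and those in Hey2 began 207 and 4 bases before it, the last of them running to base 3 after the start. In Jag1 they began 249 and 171 bases before the start. Notch2 and each of the Dll1 windows held 1 class C match, and Notch1 and Jag2 held neither motif. A match of letters is a description of the sequence and does not show that a protein binds there.

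The comparison of base with apex asks how these genes differ along the cochlea, which is tuned to high frequencies at the base and low ones at the apex. Sox2 and Jag1 were lower in the base, by 2.58-fold and 2.28-fold over both genotypes, and these were the only 2 of the 9 tested genes that passed at an adjusted p of 0.05 (limma, Benjamini-Hochberg over 13221 genes). Across all genes 1.19% passed, and 0.598% passed as lower in the base. The other 7 ranged from 0.45 for Jag2 to -0.40 for Hey2 and did not pass. The median difference of the 9 was -0.25, against -0.02 for all genes tested. At an unadjusted p under 0.05 there were 5 of 9, 2 higher and 3 lower in the base, where 17.2% of all genes were below that value. In 3 of 9 (Jag1, Sox2 and Hey1) all 4 basal samples lay below all 4 apical ones, and 12.4% of all genes had basal and apical samples that did not overlap in either direction.

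**Figure D1:**
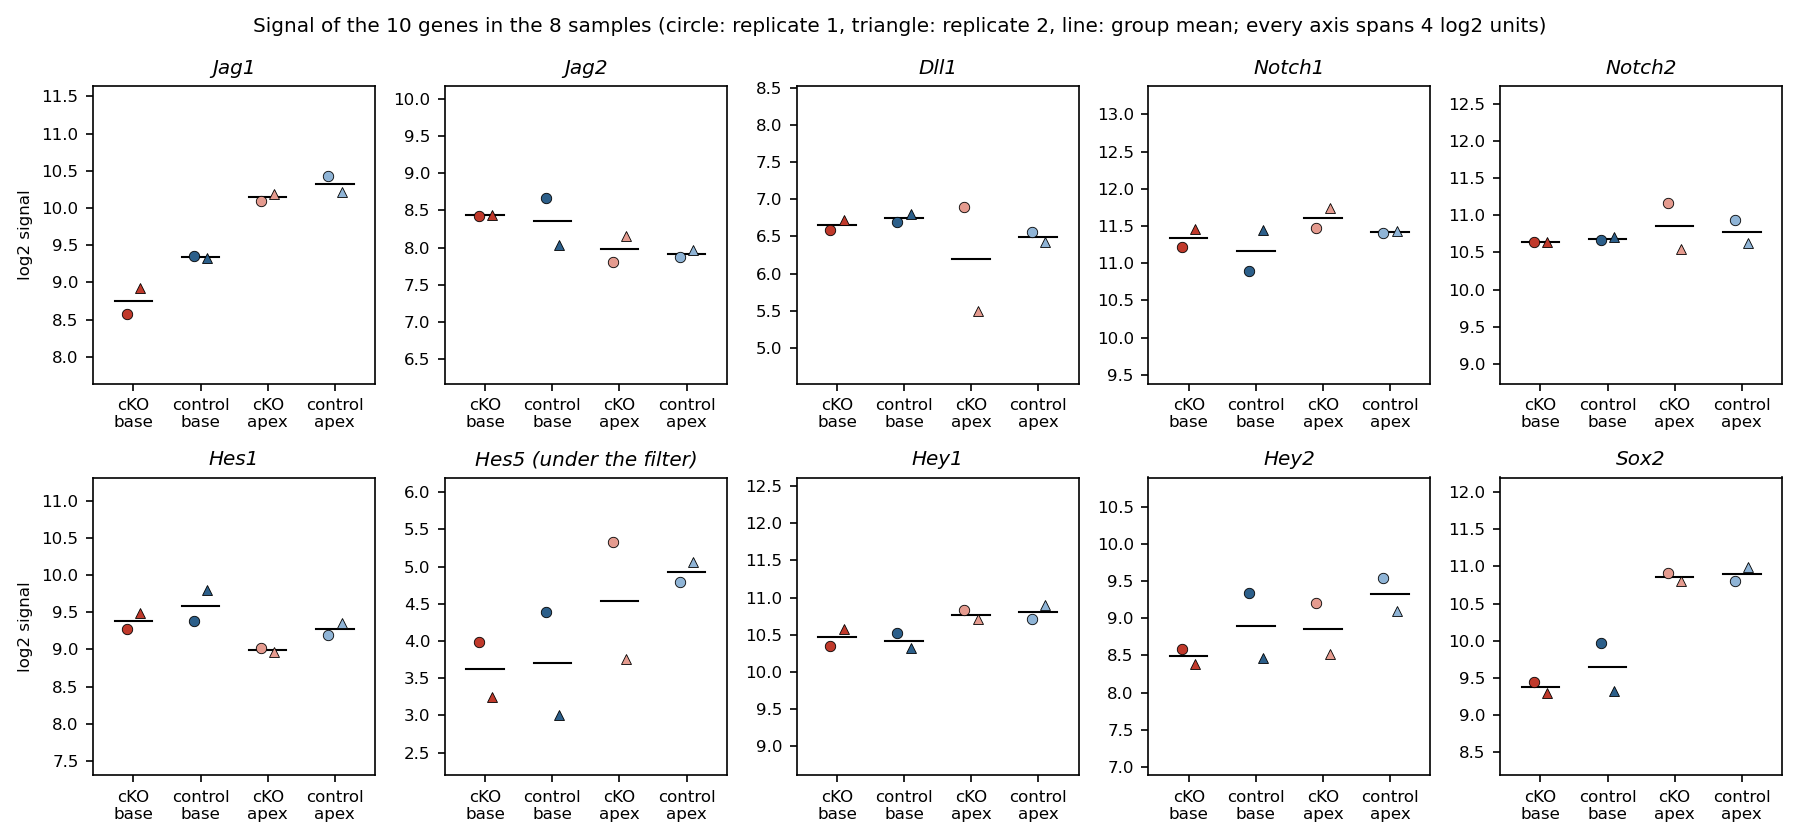
Log2 signal (vertical axes) of the 10 genes in each of the 8 samples, by group (horizontal axes: cKO base, control base, cKO apex, control apex). Circles are replicate 1, triangles replicate 2 and lines group means; in the Jag1 and Sox2 panels every basal sample sits below every apical one, and Hes5 was under the filter.

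**Figure D2:**
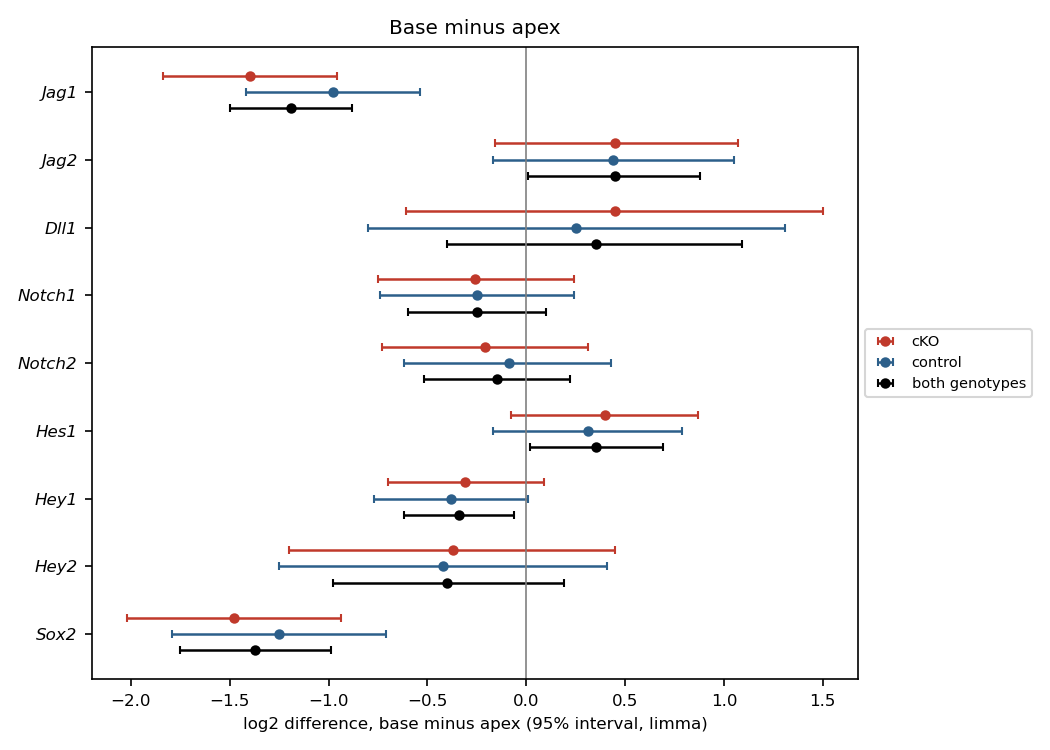
Log2 difference of base minus apex with its 95% interval from limma (horizontal axis) for the 9 tested genes (vertical axis), over both genotypes and in each genotype. Sox2 and Jag1 stand at -1.37 and -1.19 over both genotypes and the other 7 between -0.40 and 0.45.

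Of the ligands, Jag1 (chr2:137081451-137116520) gave the clearest order of groups. Its log2 signal was 8.57 and 8.93 in cKO base, 9.36 and 9.33 in control base, 10.10 and 10.19 in cKO apex, and 10.43 and 10.21 in control apex. The 4 groups did not overlap, though cKO apex (10.19) and control apex (10.21) nearly met. Between cKO and control 28.7% of all genes did not overlap in the base and 31.2% in the apex. The Jag1 means, lowest first, were 8.75 ± 0.26 in cKO base, 9.34 ± 0.02 in control base, 10.15 ± 0.06 in cKO apex and 10.32 ± 0.16 in control apex (SD, n = 2 each). The cKO and control apex did not differ beyond the error of the fit. Base minus apex was -1.19 ± 0.13 over both genotypes (log2, SE, with a 95% interval of -1.50 to -0.88 and an adjusted p of 0.0173). Within the genotypes it was -1.40 ± 0.19 in cKO (2.64-fold, adjusted p = 0.074) and -0.98 ± 0.19 in control (1.97-fold, adjusted p = 0.335), neither of which passed. The test of the difference between those values gave -0.42 ± 0.27 (unadjusted p = 0.159), so a stronger gradient in the cKO was not shown.

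The result for Jag1 rests on 1 of its 3 probe sets. Values above are those of 1434070_at, the brightest. The second, 1421106_at, read 5.18 and 6.10 in cKO base, 6.01 and 6.61 in control base, 6.31 and 7.02 in cKO apex, and 7.03 and 6.97 in control apex, and gave -0.86 ± 0.31 for base minus apex (adjusted p = 0.247 over all probe sets). It ordered the group means as the first did, with samples of base and apex overlapping. The third, 1421105_at, read 5.95 and 6.19 in cKO base, 5.88 and 5.97 in control base, 6.32 and 5.38 in cKO apex, and 6.27 and 5.38 in control apex, and gave 0.16 ± 0.33, with the apical replicates further apart than the regions. When the 3 were averaged, Jag1 gave -0.63 with an adjusted p of 0.205 and no longer passed. Which stretch of the transcript each of them reads was not analysed here.

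**Figure D3:**
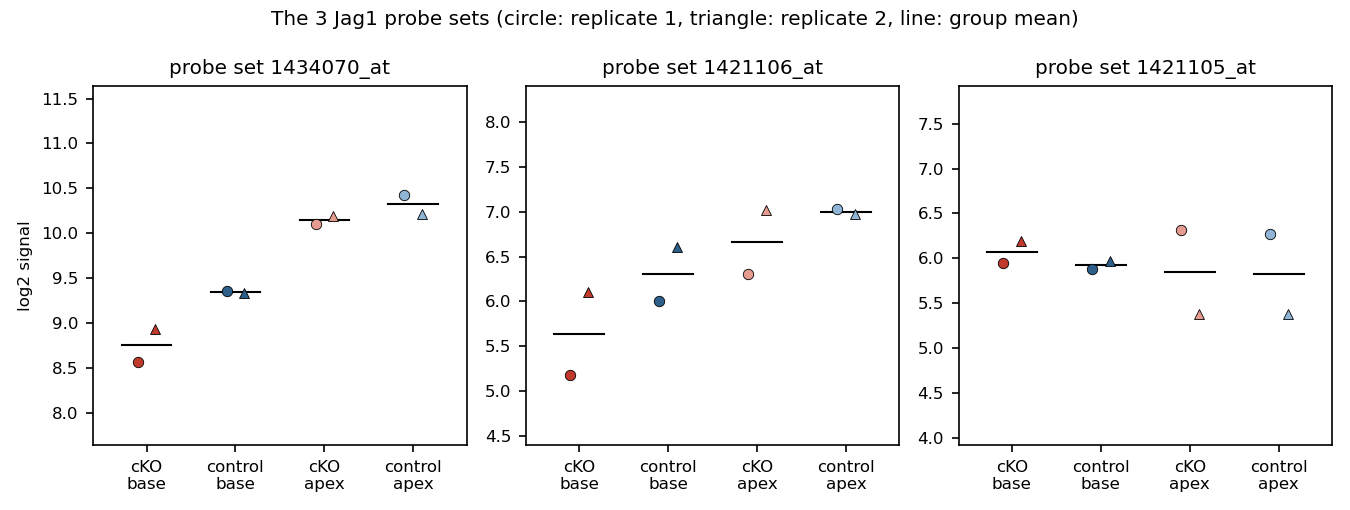
Log2 signal (vertical axes, each spanning the same range of log2 units) of the 3 Jag1 probe sets in each sample, by group (horizontal axes); circles are replicate 1, triangles replicate 2 and lines group means. The bright probe set at the left separates base from apex, while the one at the right, with means of 5.83 to 6.07, does not.

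Jag2 (chr12:112907803-112929812), the ligand of hair cells, had 8.43 and 8.44 in cKO base, 8.67 and 8.04 in control base, 7.81 and 8.15 in cKO apex, and 7.87 and 7.97 in control apex. The sign was opposite to that of Jag1, with only the lower basal control (8.04) below the highest apical sample (8.15). Base minus apex was 0.45 ± 0.19 (unadjusted p = 0.045, adjusted p = 0.277), and the second Jag2 probe set gave 0.32 ± 0.23. Dll1 (chr17:15367354-15376932), a ligand that nascent hair cells display, had 6.58 and 6.72 in cKO base, 6.69 and 6.80 in control base, 6.90 and 5.50 in cKO apex, and 6.56 and 6.42 in control apex. The apical cKO samples spanned the whole range of the gene, and base minus apex was 0.35 ± 0.32 (adjusted p = 0.61). Dll1 was the dimmest tested gene of the set, at a mean of 6.52 against a filter of 5.274.

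Neither receptor passed along the cochlea. Notch1 (chr2:26457902-26503822), the receptor of the lateral inhibition that spaces hair cells, read 11.22 and 11.46 in cKO base, 10.90 and 11.44 in control base, 11.47 and 11.74 in cKO apex, and 11.40 and 11.43 in control apex. Regions overlapped, and base minus apex was -0.25 ± 0.15 (adjusted p = 0.432), with an interval of -0.60 to 0.10. Its second probe set gave -0.13 ± 0.14. Notch2 (chr3:98013538-98150367) read 10.64 and 10.64 in cKO base, 10.66 and 10.70 in control base, 11.16 and 10.54 in cKO apex, and 10.93 and 10.62 in control apex. Its 4 basal samples lay within the span of the apical ones, and base minus apex was -0.15 ± 0.16 (adjusted p = 0.658). The second Notch2 probe set, near the filter, gave 0.18 ± 0.50.

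Among the effectors, Hes1 and Hey1 had opposite signs along the cochlea. Hes1 (chr16:30065357-30067796) had 9.28 and 9.49 in cKO base, 9.38 and 9.80 in control base, 9.02 and 8.96 in cKO apex, and 9.20 and 9.36 in control apex. Base exceeded apex within each genotype, with basal and apical samples overlapping only across genotypes, and the difference was 0.35 ± 0.14 (unadjusted p = 0.0418, adjusted p = 0.267). Hey1 (chr3:8663359-8667038) had 10.35 and 10.58 in cKO base, 10.52 and 10.32 in control base, 10.83 and 10.71 in cKO apex, and 10.71 and 10.90 in control apex. All basal samples lay below all apical ones, by -0.34 ± 0.12 (unadjusted p = 0.0222, adjusted p = 0.21), which did not pass.

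Hey2 (chr10:30832359-30842783), a repressor known from pillar cells, which are supporting cells, read 8.59 and 8.39 in cKO base, 9.34 and 8.46 in control base, 9.20 and 8.52 in cKO apex, and 9.54 and 9.10 in control apex. The control basal replicates lay further apart than the regions, and base minus apex was -0.40 ± 0.25 (adjusted p = 0.462). Hes5 (chr4:154960626-154962372), a Notch target of supporting cells in the immature cochlea, was under the filter with both of its probe sets. The brighter read 3.99 and 3.25 in cKO base, 4.39 and 3.01 in control base, 5.33 and 3.76 in cKO apex, and 4.80 and 5.06 in control apex, a mean of 4.20. Fitted without a filter it gave -1.08 ± 0.55 for base minus apex (interval -2.34 to 0.19, adjusted p = 0.431), and the second probe set ranged from 1.59 to 5.27 with no shared order. At such signals a difference in Hes5 was not detectable.

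Sox2 (chr3:34649995-34652461), which the prosensory region needs and supporting cells keep, was at 9.45 and 9.30 in cKO base, 9.97 and 9.32 in control base, 10.91 and 10.81 in cKO apex, and 10.81 and 10.99 in control apex. The highest basal sample (9.97) lay below the lowest apical one (10.81), while cKO and control overlapped in each region. The means were 9.37 ± 0.11 in cKO base, 9.65 ± 0.46 in control base, 10.86 ± 0.07 in cKO apex and 10.90 ± 0.12 in control apex (SD, n = 2 each), with no step between genotypes beyond the spread. Base minus apex was -1.37 ± 0.16 over both genotypes (interval -1.75 to -0.99, adjusted p = 0.0197), -1.48 ± 0.23 in cKO (2.80-fold, adjusted p = 0.0952) and -1.25 ± 0.23 in control (2.38-fold, adjusted p = 0.335). The difference between the genotypes was -0.23 ± 0.33.

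Within a genotype the regional comparison had fewer calls. In cKO 0.0832% of all genes passed (11 of 13221) and in control 0% did (0 genes, with 994 at an unadjusted p under 0.05 in limma), and none of the 9 tested genes was among the calls. Jag1 and Sox2 were the 2 of 9 at an unadjusted p under 0.05 in cKO, where 11.3% of all genes were, and again the 2 of 9 in control, where 7.52% were. With the presumed mouse as a replicate block, the calls over both genotypes came to 255 in place of 157, and those in cKO to 0 in place of 11; Jag1 (adjusted p = 0.0199) and Sox2 (0.0239) still passed over both genotypes.

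Leaving out 1 sample at a time kept the direction and size of both regional differences but not always the call. Without either cKO basal, either cKO apical or either control apical sample, Jag1 ran from -1.10 to -1.28 with adjusted p of 0.0622 to 0.11, and Sox2 from -1.33 to -1.41 with adjusted p of 0.0622 to 0.125. The 2 control base replicates stood apart from each other. Without replicate 1 of the control base, Jag1 was -1.20 and Sox2 was -1.53. Without control base replicate 2 the values were -1.18 for Jag1 and -1.21 for Sox2. In control alone Sox2 passed once replicate 1 of the base was left out (-1.58, adjusted p = 0.0178), against -0.93 (0.218) without replicate 2.

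The comparison of cKO with control asks how these genes differ between mice with both Dicer1 alleles floxed and littermates with a single floxed allele. None of the 9 passed in the base, in the apex or over both regions, and neither did any other gene: 0% of the 13221 were called in each of these comparisons (limma), with 413, 290 and 319 genes at an unadjusted p under 0.05. Jag1 in the base came closest, at 8.75 ± 0.26 in cKO and 9.34 ± 0.02 in control (SD, n = 2 each). In the base the members' median difference was -0.10 and in the apex -0.04, against 0.00 for all genes in both. These values say that no difference was found at this number of arrays, not that there was none.

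**Figure D4:**
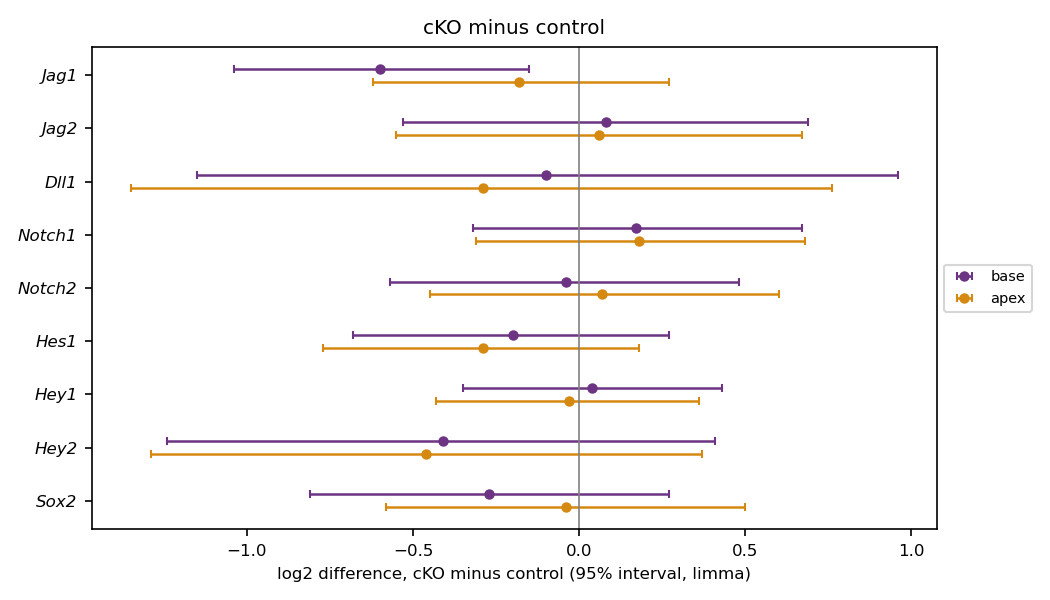
Log2 difference of cKO minus control with its 95% interval from limma (horizontal axis) for the 9 tested genes (vertical axis), in base and apex. The interval of Jag1 in the base, -1.04 to -0.15, is the one that leaves out 0, and no gene passed after adjustment.

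In the base Jag1 differed by -0.60 ± 0.19 (1.51-fold lower in cKO, interval -1.04 to -0.15, unadjusted p = 0.015, adjusted p = 1). It was the 1 of 9 at an unadjusted p under 0.05, where 3.12% of all genes were. Without cKO base replicate 1 the difference was -0.41 (unadjusted p = 0.111) and without control base replicate 1 it was -0.58 (0.0386). The second Jag1 probe set gave -0.67 ± 0.44 and the third 0.15 ± 0.47, and their average with the first -0.37. The cKO basal samples enter both this difference and the regional one in cKO, so the low Jag1 of cKO base appears in both.

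For the other genes of the set the basal genotypes could not be told apart. Jag1 and Notch2 were the 2 of 9 whose genotypes did not overlap in the base, both lower in cKO, and 28.7% of all genes did not overlap in that comparison; for Notch2 the difference was only -0.04 ± 0.22. Sox2 differed by -0.27 ± 0.23 and Hey2 by -0.41 ± 0.35, and both turned on which control was used. Without control base replicate 1 they were 0.05 and 0.03, and without replicate 2 they were -0.60 and -0.85. The remaining differences were 0.17 ± 0.21 for Notch1, 0.08 ± 0.26 for Jag2, 0.04 ± 0.17 for Hey1, -0.10 ± 0.45 for Dll1 and -0.20 ± 0.20 for Hes1. Here too the control basal replicates set the sign or size: without replicate 1 the difference was -0.10 for Notch1, 0.39 for Jag2 and -0.41 for Hes1, and without replicate 2 it was 0.45, -0.24 and 0.00 for the same genes in that order. The second Jag2 probe set differed from the brighter one here, giving -0.66 ± 0.32 (unadjusted p = 0.0769).

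In the apex 0 of 9 were at an unadjusted p under 0.05, where 2.19% of all genes were. Notch1 lay higher in both cKO samples than in both controls (0.18 ± 0.21), and Jag1 (-0.18 ± 0.19) and Hes1 (-0.29 ± 0.20) lay lower, so 3 of 9 did not overlap, where 31.2% of all genes did not. Sox2 differed by -0.04 ± 0.23, with an interval of -0.58 to 0.50, and Hey2 by -0.46 ± 0.35, which was -0.12 without cKO apex replicate 2 and -0.80 without replicate 1. Over both regions, with 1 value per presumed mouse, Jag1 differed by -0.39 ± 0.16 (unadjusted p = 0.0583) and Hey2 by -0.44 ± 0.29, which was -0.11 without control mouse 1 and -0.77 without control mouse 2. Hes5, fitted without a filter, differed by -0.08 ± 0.77 in the base and -0.38 ± 0.77 in the apex. The test of whether the genotype difference itself changed between base and apex called 0 genes (0% of all genes, with 149 at an unadjusted p under 0.05 in limma), and the 9 ranged from -0.42 for Jag1 to 0.20 for Dll1.

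The rest of the pathway was read from 6 lists with 68 genes, of which 63 had a probe set of their own and 55 were tested. The lists held the other ligands and receptors (4 tested of 6), modifiers of ligands and receptors (18 of 18), subunits of gamma-secretase, the protease that frees the receptor's inner part (5 of 6), the transcription complex and its co-regulators (9 of 12), other targets and Hes genes (9 of 12), and inner ear partners of Sox2 (10 of 14). None of the 55 passed in any comparison. For base against apex 5 were higher and 6 lower at an unadjusted p under 0.05 (11 of 55, where 17.2% of all genes were), with a median of 0.09 against -0.02 for all genes. For cKO against control it was 3 higher and 0 lower in the base (3.12% of all genes), 1 higher and 0 lower in the apex (2.19% of all genes), and 0 over both regions (319 of the 13221 genes). Dll3, Dlk1, Maml2, Hes7, Hes2, Hes3, Fgf20 and Atoh1 (mean 4.79) were under the filter.

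Along the cochlea the smallest p of these lists belonged to Notch4, a receptor of blood vessels. Notch4 had 9.19 and 9.54 in cKO base, 8.70 and 9.14 in control base, 8.46 and 8.64 in cKO apex, and 8.14 and 8.25 in control apex. All basal samples lay above all apical ones, by 0.77 ± 0.16 (adjusted p = 0.0707). Sox9, an inner ear transcription factor of the same family as Sox2, gave 0.98 ± 0.22 (adjusted p = 0.0826), the opposite sign from Sox2, while Gata3, which prosensory cells need, gave -0.69 ± 0.21 (0.178) and Rbpj, the DNA-binding partner of Notch, -0.30 ± 0.11 (0.223). In cKO alone Gata3 was at -1.05 ± 0.30, Lfng, a glycosyltransferase that tunes receptors, at -1.04 ± 0.40, Notch4 at 0.81 ± 0.23 and Notch3, a receptor of mural cells, at 0.68 ± 0.29. In control alone Sox9 was at 1.34 ± 0.31, Notch4 at 0.72 ± 0.23, the ligand ubiquitin ligase Mib2 at 0.45 ± 0.18 and Prox1, a supporting cell transcription factor, at -1.50 ± 0.65. Control base replicate 2 carried much of that Prox1 value, with 7.97 and 5.73 in control base against 8.41 and 8.27 in control apex.

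Between genotypes in the base, the coactivators Ep300 and Maml1 were at 0.67 ± 0.21 (unadjusted p = 0.0143) and 0.52 ± 0.19 (0.0274) for cKO minus control, and Dtx3, a ubiquitin ligase of the Deltex family, at 1.01 ± 0.34 (0.02). Ep300 had 10.79 and 11.30 in cKO base against 10.51 and 10.25 in control base. Cdkn1b, which keeps supporting cells out of the cell cycle, was at -0.43 ± 0.20. None of these passed, and the adjusted p was 1 for all 4. In the apex the gamma-secretase subunit Aph1a was at 0.86 ± 0.23 (unadjusted p = 0.00612, adjusted p = 1), with 11.14 and 11.24 in cKO against 10.18 and 10.48 in control. Its relative Aph1b was at 0.35 ± 0.16, the co-regulator Snw1 at -0.24 ± 0.15 and Dll4, a ligand of blood vessels, at -0.67 ± 0.39. Over both regions Aph1a was at 0.47 ± 0.19, Numb, an inhibitor of Notch, at 0.24 ± 0.11, Notch4 at 0.40 ± 0.19 and Cdkn1b at -0.30 ± 0.13. The genotype difference in the base minus that in the apex was 1.19 ± 0.48 for Dtx3, 0.76 ± 0.30 for Ep300, 0.60 ± 0.27 for Maml1 and -0.78 ± 0.32 for Aph1a, with an adjusted p of 1 for each.

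Markers of the cells in the tissue were read beside these values, since in bulk tissue fewer cells of a type and less RNA per cell cannot be told apart. Summed signals cover every gene of a list with a probe set of its own, also those under the filter, and medians cover the tested genes. The supporting cell list, 12 of 12 genes tested (Cdkn1b and Prox1 among them), had summed signals of 77802 to 80893 in cKO base, 66769 to 80994 in control base, 84422 to 88923 in cKO apex and 77784 to 80353 in control apex. For base minus apex 5 were positive and 7 negative, with a median of -0.20, and the tectorial membrane genes Otog (-1.40) and Tectb (-6.00) passed. The most abundant, Epyc and S100b, stayed between 13.87 and 14.55 in all samples, with opposite leanings along the cochlea. Epyc read 13.98 to 14.31 in the base and 14.11 to 14.55 in the apex, and S100b 14.14 to 14.47 and 13.87 to 14.04. Hair cell markers, 9 tested of 12, moved with the regional difference of Jag1 and Sox2. The summed signals of the 10 hair cell markers on the array were 669 to 914 in cKO base, 1461 to 1607 in control base, 2611 to 3536 in cKO apex and 2795 to 3221 in control apex. All 9 tested had negative base minus apex values over both genotypes, with a median of -1.10, and Chrna9 (-3.23), Strc (-2.96) and Gfi1 (-2.01) passed. The basal mean of Chrna9 (4.47, against 7.70 in the apex) was under the filter. That of Strc (5.89, against 8.85) was little above it. The sizes of the Chrna9 and Strc differences are therefore uncertain. Gfi1 had means of 7.11 in the base and 9.12 in the apex, both above the filter.

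**Figure D5:**
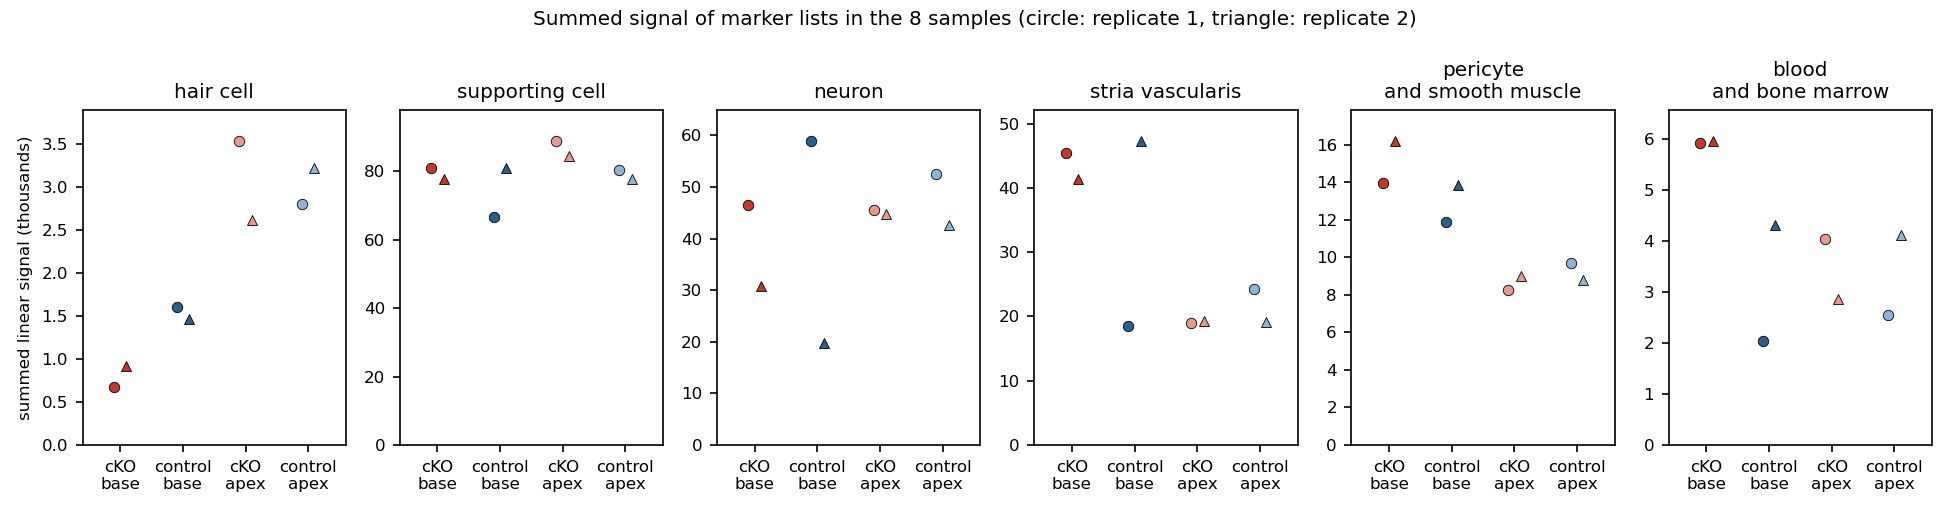
Summed signal of cell type marker lists (vertical axes, linear and starting at 0, scaled as their label says) in each sample, by group (horizontal axes); circles are replicate 1 and triangles replicate 2. The hair cell list was lowest in cKO base, at 669 to 914, and the supporting cell list ranged from 66769 to 88923 over all samples.

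For cKO minus control in the base all 9 hair cell markers were negative, with a median of -0.76 and none called, beside the -0.60 of Jag1, while the supporting cell median was 0.04. Otof and Myo7a were the most abundant hair cell markers, and Slc26a5, the motor of outer hair cells, was under the filter. Myo7a had 7.68 and 8.02 in cKO base, 8.49 and 7.99 in control base, 9.17 and 8.42 in cKO apex, and 8.96 and 8.70 in control apex. Otof had 6.97 and 7.45 in cKO base and 8.94 and 8.18 in control base. Its apical values were 8.69 and 8.28 in cKO and 9.26 and 8.95 in control. The part of the hair cell markers in the values of Jag1 and Sox2 was not tested.

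Tissues beside the sensory epithelium also varied. Stria vascularis markers, 8 tested of 10, summed to 41362 to 45450 in cKO base, 18536 (replicate 1) and 47353 (replicate 2) in control base, 19020 to 19240 in cKO apex and 19138 to 24322 in control apex. Their median was 2.14 for base minus apex and 1.54 for cKO minus control in the base. Endothelial markers, 7 tested of 8, summed to 5025 to 6412 in cKO base, 5259 to 8515 in control base, 5033 to 6481 in cKO apex and 5346 to 6832 in control apex. For base minus apex 6 were positive and 1 negative, with a median of 0.71 and Tek called at 0.72, beside the 0.77 of Notch4. The negative one was the brightest, Emcn, at 10.12 to 11.71 in the base and 11.32 to 11.83 in the apex. The summed endothelial signals of base and apex overlapped. Pericyte and smooth muscle markers, 6 of 6, summed to 11907 to 16216 in the base and 8245 to 9706 in the apex (median 0.65). In these lists Slc12a2 and Kcnj10, Emcn and Cldn5, and Rgs5 and Pdgfrb were brightest, and Tyrp1, Bsnd and Pecam1 were under the filter.

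The other lists had base minus apex medians of -0.37 for neurons (8 of 8 tested, brightest Nefl and Snap25), -0.17 for Schwann cells and glia (4 of 7, Pmp22 and Mbp), 0.35 for fibrocytes and mesenchyme (9 of 9, Coch and Otor, with Col3a1 called at 0.75) and 0.29 for blood and bone marrow (5 of 8, S100a8 and Alas2, with Hba-a1 under the filter). Neuronal markers summed to 30893 to 46483 in cKO base and 19752 to 58970 in control base, where replicate 1 was the higher. Over all samples fibrocyte and mesenchyme markers summed to 97105 to 147064, and Schwann cell and glia markers to 41532 to 58654. Blood and bone marrow markers summed to 5919 to 5970 in cKO base and 2049 to 4323 in control base, with a median of 1.23 for cKO minus control there and none called. The part of any of these lists in the Notch gene values was not tested.

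Genes whose pattern over the 8 samples was most like that of each tested gene were found by Pearson correlation of log2 signal, as a description of 8 points from 4 presumed mice that share arrays. For Jag1 these were Zfp120 (r = 0.991) and Atf7ip (0.982), and for Sox2 Strip2 and Pls1, both at 0.986. Zfp120 had 6.73 and 6.83 in cKO base, 7.10 and 7.15 in control base, 7.50 and 7.62 in cKO apex, and 7.72 and 7.71 in control apex. It was picked for its likeness to Jag1, so the order of groups they share is no separate result. The closest for Jag2 were Elmo2 (0.946) and Acan (0.938), for Dll1 Stom and Aspg (0.961 each), for Notch1 Flrt1 (0.977) and Afdn (0.964), and for Notch2 Map3k4 (0.974) and Impa1 (0.955). For Hes1 they were Higd1b (0.967) and Pgk1 (0.961), for Hey1 Ahr (0.971) and Bcor (0.965), and for Hey2 Plaat1 (0.99) and Cstf2 (0.976). None of these is on the pathway lists. Dll1, Stom and Aspg were each lowest in cKO apex replicate 2, at 5.50, 7.95 and 1.38, and their likeness without that sample was not computed.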

How the data were processed

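Per the labels' protocols, mirVana total RNA was amplified and labelled in 2 cycles, and the authors scaled each array to a trimmed mean of 500 (2% off each end). Each deposited number is the linear intensity of a probe set; the submitters' processing notes name MAS5 and affy 1.26. Of 45101 probe sets, 64 were array controls, 34945 had 1 gene in the supplied annotation, 932 several and 9160 none, and 34741 of those with 1 gene were matched by Entrez identifier to RefSeq genes on GRCm38.p6. From the deposited intensity, log2 values were computed with no pseudocount. A gene was read from its probe set of highest mean log2 value, and probe sets under the 40th percentile (5.274, a signal of 38.71) were not tested.

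The model was fitted with limma 3.58.1 (R 4.3.3) to 4 group means over all 8 samples with an intensity trend (4 residual degrees of freedom and 3.46 from the prior), two-sided, with Benjamini-Hochberg adjustment over 13221 genes and a threshold of 0.05. The genotype over both regions was fitted on 1 mean per presumed mouse (2 residual degrees of freedom and 3.1 from the prior). The labels tie an array to 1 mouse; deviations of base and apex of the same number correlated at 0.339 in control and 0.0683 in cKO, and across genotypes the number is only shared. The members and all lists were chosen with earlier results of these data known. The text names all members, the 4 pathway genes of smallest p in each comparison, and from each marker list the 2 brightest genes, those under the filter and those called. The fit was tested on simulated data with independent noise for each sample. These held no pairing by mouse and no replicate that stood apart, and no result here rests on them. Alternatives covered the filter, a pseudocount of 16, scaling, the choice of probe set, the variance model, blocks and leaving out samples. Detection calls were not used here.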

Additional observations from a re-analysis of the deposited data

How the results depend on the processing

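Of 1235 values of the tested Notch genes and Sox2 recomputed under other settings, none that passed changed sign; 66 values that did not pass had the opposite sign to the reported one, and no reported value among these was over 0.45 in size. The calls of Jag1 and Sox2 over both genotypes were kept under every change of filter, pseudocount, scaling, variance model and block, and were lost for Jag1 with the mean of its probe sets and for both without any of 6 samples, as given above. In cKO alone both passed when only the groups compared were fitted (adjusted p of 0.0119 for Jag1 and 0.00573 for Sox2) and with the presumed mouse as a random block (0.0259 and 0.0387), and without either control basal sample or both samples of control mouse 1 (0.0118 to 0.0144 for Jag1 and 0.00572 to 0.00812 for Sox2). Counts of genes called moved more. For base against apex over both genotypes, 157 became 98 with the mean of probe sets, 70 with no intensity trend, 255 with the replicate block and 527 with the mouse as a random block. In cKO, 11 became 6 with the mean of probe sets, 449 with only the groups compared, 81 with the random block, and 0 with the replicate block, no filter, every probe set, no intensity trend, quantile normalization or 75th percentile centring. For cKO against control, 1 gene was called with no intensity trend in the base and 1 in the apex. Leaving out 1 sample at a time gave 0 to 1518 calls for base against apex over both genotypes, 0 to 316 in cKO and 0 to 551 in control, 0 to 37 for cKO against control in the base, 0 to 0 in the apex and 0 to 9 over both regions, and 0 to 0 for the change of the genotype difference between regions. Leaving out both samples of control mouse 1, chosen after seeing the data, gave 1049 calls over both genotypes, 449 in cKO and 157 in control, with Jag1 at -1.14 (adjusted p = 0.0103) and Sox2 at -1.57 (0.00211) over both genotypes and Sox2 at -1.67 (0.0315) in control. The replicate block changed no call of these genes; the cause of these changes was not tested. With 2 arrays a group, small differences could not be detected, and Hes5 was too dim to compare.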
